A study of Mus musculus with 6 samples.

Results

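The mitochondrial carriers and the mitochondrial protein import machinery were followed with age in mouse cochlea, the part of the inner ear that senses sound. The genes were taken by symbol from the platform annotation of an Affymetrix array: every gene whose single symbol starts with Slc25a (33 metabolite carriers) or with Timm or Tomm (22 import genes), each represented by its probe set with the highest mean signal. A probe set is a group of short probes for 1 transcript, and its signal is a linear brightness in arbitrary units. Together they were 55 genes of 12393, measured by 108 probe sets. Both ages came from male mice of the inbred strain DBA/2J, which loses hearing early in life, kept in 1 facility on a light-dark cycle with free access to a nonpurified diet and acidified water. The labels list no treatment. There were 3 samples of cochlear RNA at 7 weeks of age and 3 at 36 weeks, 1 array each. No source used here gives the number of animals behind a sample, so the p-values below measure the spread between these samples, which may in part be technical. The study set the ages against each other to look for genes tied to age-related hearing loss.

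The inner mitochondrial membrane is closed to charged metabolites. Carriers of the SLC25 family exchange them across it, among them ADP for ATP, phosphate, the carboxylates and amino acids of the shuttles, carnitine esters, iron and nucleotides. Nearly all mitochondrial proteins, the carriers included, are made in the cytosol and enter through the translocase of the outer membrane (Tomm genes), after which the small chaperones of the intermembrane space guide membrane proteins to the TIM22 translocase, while proteins with a cleavable presequence pass through the TIM23 translocase (both Timm genes). The link of this machinery to hearing is known in people, in whom loss of TIMM8A, the counterpart of mouse Timm8a1, causes a syndrome of deafness and dystonia.

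The median signal of the 6 arrays lay between 766.3 and 859.3, and arrays of the same age correlated better (lowest Spearman rho 0.951, across probe sets) than arrays of different ages (highest 0.906). Of 16 cochlear marker genes on the array, 12 of 14 tested were lower at 36 weeks and 0 higher, with a summed signal of 262177 to 269679 at 7 weeks and 67246 to 67578 at 36 weeks. None was at 0, but the signals of Slc26a5, prestin of the outer hair cell (means of 253.7 and 331.6), and of Tecta, of the tectorial membrane (591.0 and 284.1), were too low to be tested. Markers of other tissues moved as well. All 25 skeletal muscle markers were lower, with a median log2 difference of -1.80. All 16 granulocyte and all 8 tested mucosal secretory markers were higher, with medians of 3.84 and 4.18, and 10 of 12 tested brain and cerebellar markers were higher, with a median of 1.75. Some markers passed the signal limit for testing (593.6) only through the age at which they were high. At 7 weeks the means of Ltb4r1 (30.1), Ctsg (354.1), Itgb2l (429.4), Agr2 (338.9), Reg3g (392.6) and Neurod2 (352.2) lay below it. At 36 weeks so did those of fallen markers such as Sln (277.8), Tnnt1 (156.7) and Kcne1 (121.7). The calls of such genes are a description only. These are bulk samples, in which a smaller share of a cell type and less RNA per cell cannot be told apart. Nor can a change with age within the cochlea be told apart from a different amount of other tissue in the samples. With 3 arrays per age, their number sets how precise any value can be.

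Carriers and import genes went both ways with age, and as often as genes at large. Of the 55 genes, 47 had a signal above the 40th percentile of all probe sets (593.6) and were tested. At a Benjamini-Hochberg adjusted p under 0.05 by limma, fitted to all 13575 tested probe sets, 6 rose and 10 fell at 36 weeks. The background over the brightest tested probe sets of 8555 genes was 35.1% called, 17.5% higher and 17.6% lower (34.4% of all tested probe sets), against 34%, 12.8% and 21.3% of these 47 genes. The share called was therefore near the background and is no result about these genes as a set. When each array was centred on its own median in place of the deposited scaling, the split was 4 higher and 14 lower. Signals of the ages did not overlap for 11 genes that were higher and 15 that were lower. Of all tested genes 24.1% were higher and 24.2% lower without overlap, 48.3% together. The 11 include Slc25a35, which passed the signal limit only through its arrays of 36 weeks. The 8 untested genes were Slc25a2, Slc25a13, Slc25a17, Slc25a24, Slc25a26, Slc25a48, Timm8a2 and Timm9. Just inside the limit were Slc25a35, with a mean signal of 605.8, and Timmdc1, with 635.2, and just outside were Slc25a17, with 513.9, and Slc25a2, with 471.3.

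Set side by side, 10 of 27 tested carriers (37%) and 6 of 20 tested import genes (30%) passed. Among carriers 4 rose and 6 fell, and among import genes 2 rose and 4 fell. The median log2 difference, 36 weeks minus 7 weeks on the log2(signal + 50) scale, was -0.09 for carriers and -0.21 for import genes, beside 0.02 for all tested genes. No test was made between the classes. The carriers had the wider range, from -0.81 to 1.28, while the import genes ran from -0.79 to 0.63. By array, the median carrier stood at 0.06, -0.03 and 0.03 at 7 weeks, relative to each gene's mean at that age, and at -0.07, -0.06 and -0.13 at 36 weeks. The median import gene stood at 0.05, 0.09 and -0.09 at 7 weeks and at -0.12, 0.06 and -0.21 at 36 weeks, so that its arrays of the ages overlapped. With all tested probe sets of a gene averaged, the import median was -0.01 and the carrier median -0.15, which turns the order of the classes.

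**Figure D1:**
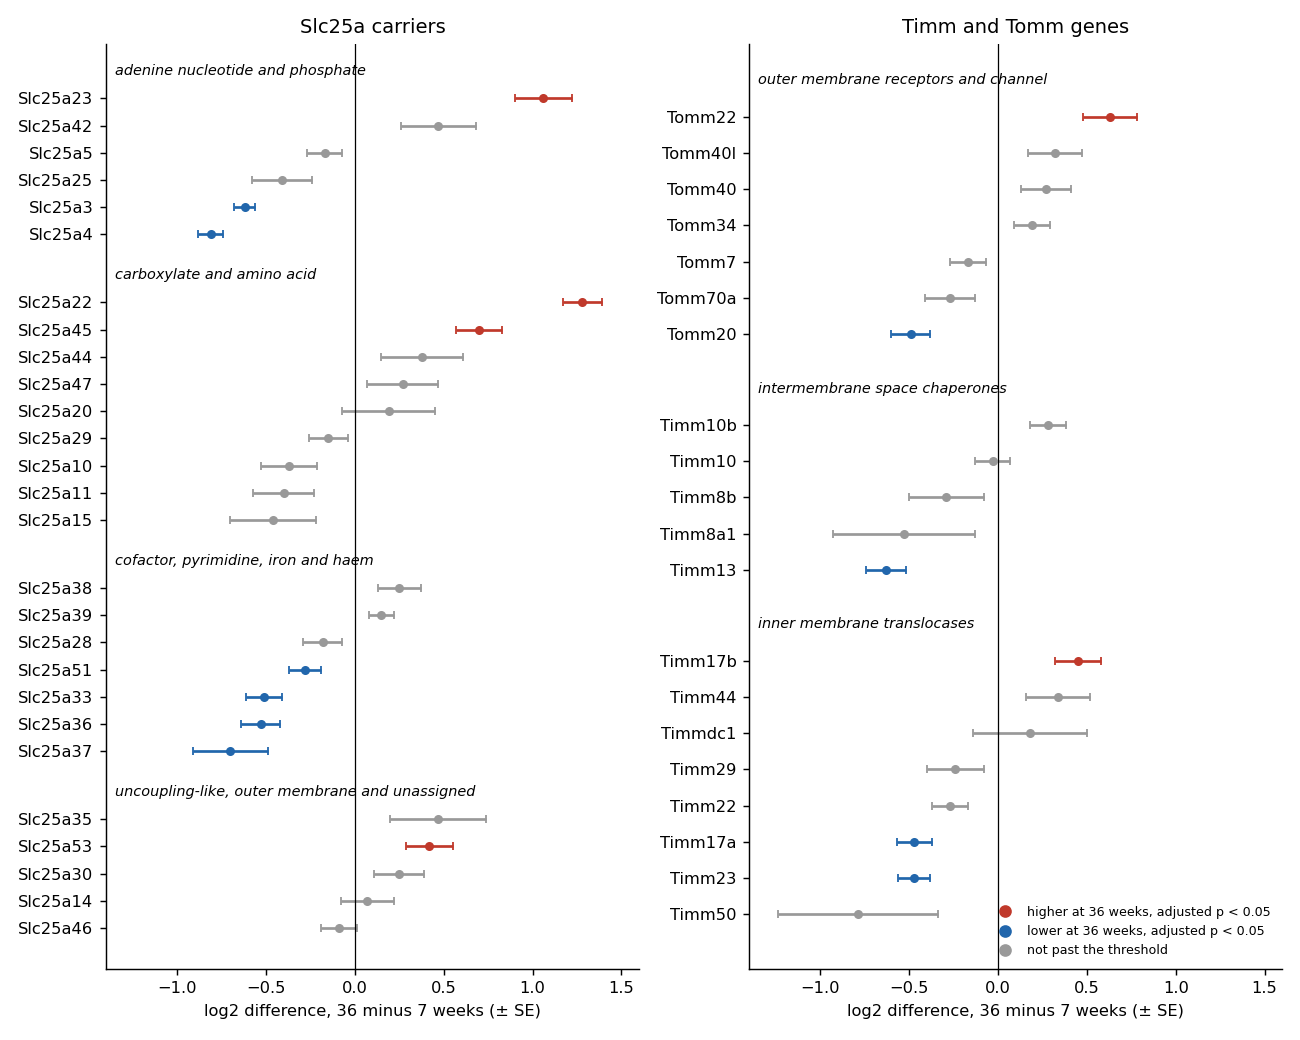
Log2 difference in signal, 36 weeks minus 7 weeks, with its standard error, for each tested gene (n = 3 arrays per age), carriers on the left and import genes on the right, grouped by role. Red and blue points passed the adjusted threshold, and each panel holds both colours, from Slc25a4 at -0.81 to Slc25a22 at 1.28 among carriers.

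**Figure D2:**
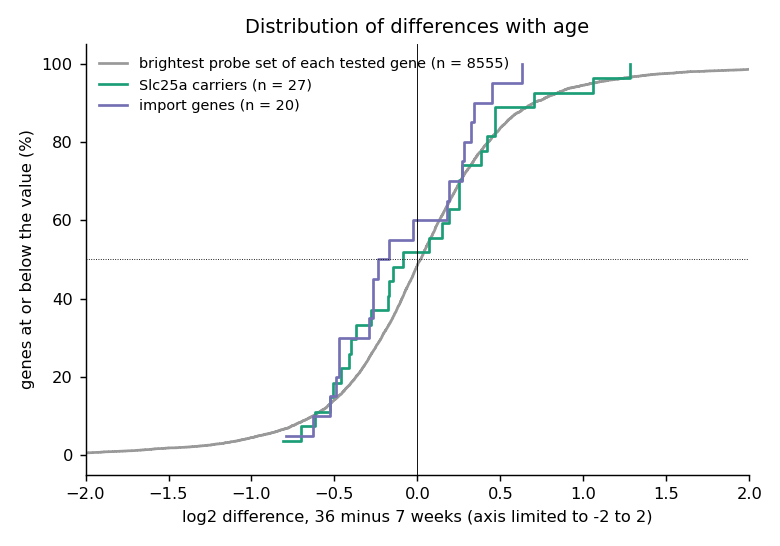
Percentage of genes at or below each log2 difference, 36 minus 7 weeks, for the 27 tested carriers, the 20 tested import genes and the brightest probe set of each of 8555 tested genes. The 3 curves run close together, with medians of -0.09, -0.21 and 0.02.

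The upstream sequences of the genes with the largest called fall and the largest called rise in each class are shown, since they let a reader see what lies before genes that moved in opposite directions. They are the 250 bases before the transcription start in RefSeq's GRCm38.p6, the C57BL/6J reference and not DBA/2J, 5′ to 3′ on the strand of the gene. Slc25a4 (chr8:46211063-46211312, minus strand) and Timm13 (chr10:80900970-80901219, minus strand) fell. Slc25a22 (chr7:141437875-141438124, minus strand, the first listed of 3 starts) and Tomm22 (chr15:79670618-79670867, plus strand) rose. Capitals mark the letters CCGGAAG, the core recognised by ETS factors such as GABP, on either strand.

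Slc25a4: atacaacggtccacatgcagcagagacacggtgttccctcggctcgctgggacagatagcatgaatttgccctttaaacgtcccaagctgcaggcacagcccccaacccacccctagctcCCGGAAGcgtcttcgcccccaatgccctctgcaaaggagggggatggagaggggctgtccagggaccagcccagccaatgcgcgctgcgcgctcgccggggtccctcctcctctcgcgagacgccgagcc
Slc25a22: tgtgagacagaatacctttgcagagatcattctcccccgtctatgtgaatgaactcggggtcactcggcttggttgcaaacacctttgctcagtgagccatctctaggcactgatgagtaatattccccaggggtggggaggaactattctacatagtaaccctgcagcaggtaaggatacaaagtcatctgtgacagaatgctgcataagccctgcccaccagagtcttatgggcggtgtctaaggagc
Timm13: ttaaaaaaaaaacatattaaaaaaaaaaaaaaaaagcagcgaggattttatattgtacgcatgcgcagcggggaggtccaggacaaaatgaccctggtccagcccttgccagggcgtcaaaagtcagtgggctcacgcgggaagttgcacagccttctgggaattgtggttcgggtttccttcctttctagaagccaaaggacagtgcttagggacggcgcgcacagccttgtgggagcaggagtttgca
Tomm22: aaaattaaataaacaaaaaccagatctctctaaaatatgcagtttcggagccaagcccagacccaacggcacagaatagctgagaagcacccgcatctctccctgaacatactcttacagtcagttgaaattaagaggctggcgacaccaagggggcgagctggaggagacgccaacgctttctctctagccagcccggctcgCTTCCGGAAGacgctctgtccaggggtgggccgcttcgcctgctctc

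The core stood once before Slc25a4, which fell, 130 bases upstream of the start, and in 2 overlapping copies on opposite strands before Tomm22, which rose. It was not in the windows of Timm13 and Slc25a22. Of the 46 genes with a window in the table, 14 held it (30.4%), 9 of 20 import genes (45%) and 5 of 26 carriers (19.2%), counted over any listed start, beside 15% of 6924 tested genes with a window and 10.2% of 17491 protein-coding genes. The 14 genes were Slc25a3, Slc25a4, Slc25a17, Slc25a20, Slc25a38, Tomm22, Tomm34, Tomm70a, Timm8a2, Timm8b, Timm10, Timm23, Timm29 and Timmdc1. Of these 3 fell (Slc25a4, Slc25a3, Timm23), 1 rose (Tomm22), 8 were not called and the others were not tested. The NRF1 motif, searched by its palindromic consensus on both strands, stood before Slc25a3 and Tomm20 (4.35% of 46 genes, against 9.26% of tested genes). The letters TCAAGGTCA, bound by oestrogen-related receptors, stood on either strand before Timm8b alone (2.17% of 46 genes, against 0.332% of tested genes). A match is a description of the letters and not a site shown to be bound.

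The carriers of adenine nucleotides and phosphate, which supply ATP synthesis with substrate, held both the largest fall and a marked rise. Of 7 genes 6 were tested, of which 2 fell and 1 rose (50% called, beside 35.1% of all tested genes). Slc25a4, the ADP/ATP carrier of heart and skeletal muscle, had signals of 46320.1, 49993 and 43552 at 7 weeks and of 25558, 27839.7 and 26284 at 36 weeks. Every old array was below every young one. It was 1.76-fold lower, a log2 difference of -0.81 ± 0.07 (SE) with a limma adjusted p of 8.76e-06. The other 2 tested probe sets of Slc25a4 fell as well, by 1.11 ± 0.07 and 0.81 ± 0.09. Slc25a3, the phosphate carrier, had signals of 39208, 37837 and 35716 at 7 weeks and of 24465, 23619.8 and 25409 at 36 weeks. Its groups did not overlap, and it was 1.53-fold lower, a log2 difference of -0.62 ± 0.06 (limma adjusted p of 3.33e-05). The skeletal muscle markers, 25 of 25 lower, had a summed signal of 435938 to 457814 at 7 weeks and of 153542 to 159565 at 36 weeks, with no marker at 0. Their part in the falls of Slc25a4 and Slc25a3 was not tested.

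Slc25a5, the ADP/ATP carrier of most other tissues, depended on the probe set. By its brightest probe set it was not called, with signals of 15893, 16166 and 12884 at 7 weeks and of 12615, 14316 and 12945 at 36 weeks, which overlap (log2 difference of -0.17 ± 0.10, limma adjusted p of 0.21). All 8 of its probe sets were tested, all had a difference below 0, and 6 of them fell, by 0.34 at the least. The probe set next in brightness had 1 old array far from the others, at 4859 beside 13079.9 and 12275, and did not pass (limma adjusted p of 0.0528). The brightest probe sets of Slc25a4 and Slc25a5 have names ending in _x_at, which can bind related transcripts.

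Slc25a23, which exchanges ATP-magnesium for phosphate under the control of calcium, rose. Its signals were 1800.4, 1209 and 1489 at 7 weeks and 2743, 3563 and 3149.5 at 36 weeks. The ages did not overlap, and it was 2.10-fold higher, a log2 difference of 1.06 ± 0.16 (limma adjusted p of 0.000537). Its calcium-controlled relative Slc25a25 had a difference of -0.41 (limma adjusted p of 0.0923), and Slc25a42, a carrier of coenzyme A, one of 0.47 (limma adjusted p of 0.107), neither called. The difference between Slc25a23 and Slc25a25 in their response was not tested.

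**Figure D3:**
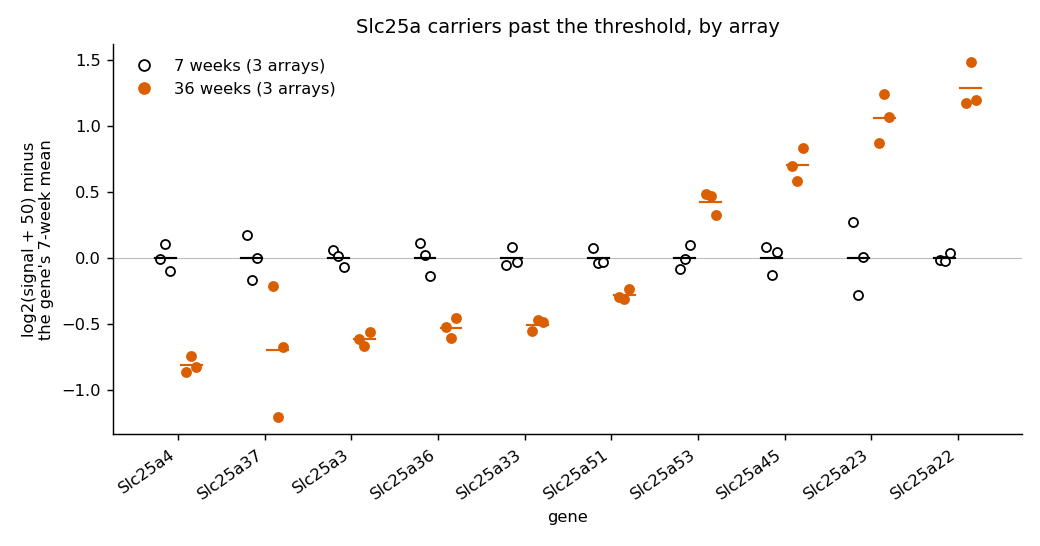
Signals of the 10 carriers past the threshold on each array, as log2(signal + 50) minus the gene's mean at 7 weeks, with 3 open points for 7 weeks and 3 filled points for 36 weeks and a bar at each mean. Slc25a22, Slc25a23, Slc25a45 and Slc25a53 lie above 0 on all old arrays and the other 6 below, with Slc25a37 the most scattered.

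Among the carriers of carboxylates and amino acids with their close relatives, 2 of 9 tested genes rose and 0 fell. That is 22.2% called, beside 35.1% of all tested genes. Slc25a22, which carries glutamate with a proton into mitochondria and is mutated in an epilepsy of infancy, had the largest rise of the 47 tested carriers and import genes. Its signals were 2597.5, 2582 and 2689 at 7 weeks and 5987, 7427 and 6053 at 36 weeks, a tight young group well below every old array. It was 2.47-fold higher, a log2 difference of 1.28 ± 0.11 (limma adjusted p of 7.38e-06). Slc25a45 had signals of 1449.8, 1246 and 1411 at 7 weeks and of 2242, 2069 and 2476 at 36 weeks, without overlap. It was 1.65-fold higher, a log2 difference of 0.70 ± 0.13 (limma adjusted p of 0.00199). The brain and cerebellar markers, 10 of 12 tested higher, had a summed signal of 53858 to 57620 at 7 weeks and of 109391 to 114454 at 36 weeks, with none at 0. Their part in the rises of Slc25a22 and Slc25a23 was not tested.

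The other tested carriers of the same role were not called by their brightest probe sets. Slc25a11, which exchanges oxoglutarate for malate in the malate-aspartate shuttle, had a difference of -0.40 (limma adjusted p of 0.0866), and Slc25a10, the dicarboxylate carrier, one of -0.37 (limma adjusted p of 0.104). The dimmer probe set of Slc25a10 went the other way and passed, from a mean of 703.3 to 1129.5, a rise of 0.64 ± 0.20 (limma adjusted p of 0.0339), so the direction of this gene was not settled. Slc25a15, the ornithine carrier of the urea cycle, had a difference of -0.46, and Slc25a29, a carrier of basic amino acids, one of -0.15 with 4 of 4 tested probe sets not called. Slc25a20, the carnitine-acylcarnitine carrier of fatty acid oxidation, differed by 0.19 ± 0.26, with old arrays at 2239, 1717 and 984.4, on both sides of the young ones. Slc25a47 differed by 0.27. Slc25a44, a carrier of branched-chain amino acids, had 3 tested probe sets, and while its brightest differed by 0.38 and was not called, the next in brightness rose by 0.97 ± 0.18 (limma adjusted p of 0.00183).

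The carriers of cofactors, pyrimidines, iron and haem precursors included 4 falls and 0 rises among 7 tested, where 17.6% of all tested genes fell and 17.5% rose. Of these 4 calls, those of Slc25a37 and Slc25a51 were lost when single arrays were left out. Slc25a33 and Slc25a36, both carriers of pyrimidine nucleotides, fell by like amounts. Slc25a33 had signals of 3182, 3496 and 3232 at 7 weeks and of 2227, 2365 and 2337.5 at 36 weeks, 1.43-fold lower (log2 difference of -0.51 ± 0.10, limma adjusted p of 0.00311). Slc25a36 had signals of 3385, 3176 and 2832.5 at 7 weeks and of 2161.5, 2031 and 2268 at 36 weeks, 1.45-fold lower (-0.53 ± 0.11, limma adjusted p of 0.00451). Neither overlapped between the ages. Slc25a51, the mitochondrial NAD carrier, fell by 0.28 ± 0.09 (limma adjusted p of 0.037). This was the smallest change among the 16 called carriers and import genes, and it lost its call with any 1 of the 6 arrays left out, at limma adjusted p-values between 0.0601 and 0.115.

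Slc25a37, mitoferrin 1, which brings iron into the mitochondria of developing red cells, had signals of 3467, 2728.5 and 3074 at 7 weeks and of 2649.6, 1308.5 and 1909 at 36 weeks. The old arrays lay below the young ones but were spread over a wide range, for a log2 difference of -0.70 ± 0.21 (limma adjusted p of 0.0284). Without the second array of 36 weeks the difference was -0.44 and not called (limma adjusted p of 0.077). The call was also lost without the third array of 36 weeks or the first or last of 7 weeks, at -0.71, -0.61 and -0.70 (limma adjusted p of 0.0585, 0.088 and 0.0681). The erythroid markers, of which 2 of 8 tested were lower and 0 higher, had a summed signal of 24308 to 25321 at 7 weeks and of 17001 to 17611 at 36 weeks, with none at 0. The 2 lower ones were Tfrc (means of 9636.4 and 4593.4) and Slc4a1 (3665.7 and 952.3). Alas2 (5737.8 and 6777.2) and Klf1 (806.9 and 1062.3) were higher on all old arrays but not called. Gata1, Rhd, Trim10 and Hemgn differed by 0.00, -0.22, -0.61 and -0.97, also not called. The part of the erythroid markers in the fall of Slc25a37 was not tested. Its relative Slc25a28, mitoferrin 2 of other tissues, differed by -0.18 and was not called. Slc25a38, the glycine carrier of haem synthesis, was higher on all old arrays, but its difference of 0.25 did not pass (limma adjusted p of 0.131). Slc25a39, which brings glutathione into mitochondria, had signals of 12066.5, 12624 and 13701 at 7 weeks and of 13567, 14512 and 14352 at 36 weeks, which overlap. Its difference of 0.15 was not called, whereas a dimmer probe set fell by 0.51 ± 0.11.

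Of the relatives of the uncoupling proteins and the remaining carriers, 1 of 5 rose and 0 fell. That is 20% called, beside 35.1% of all tested genes. Slc25a53, a carrier whose substrate is not settled, rose from signals of 1320.5, 1392 and 1501 to 1978, 1957.5 and 1768, without overlap. Its log2 difference was 0.42 ± 0.13 (limma adjusted p of 0.0257), and the call was lost after centring on the array median (0.32, limma adjusted p of 0.0746). It was lost too without the first or second array of either age (0.38 to 0.42, limma adjusted p of 0.0609 to 0.0769). Slc25a14 and Slc25a30, related to the uncoupling proteins, differed by 0.07 and 0.25 and were not called. Slc25a35 differed by 0.47 ± 0.27 and was not called. Its mean of 497.1 at 7 weeks lay below the limit for testing (593.6), and that of 714.4 at 36 weeks above it. Slc25a46, an outer membrane protein of mitochondrial fusion and fission whose loss causes optic and peripheral nerve disease, had signals of 3709, 3632 and 3561 at 7 weeks and of 3148.5, 3845 and 3256 at 36 weeks. The ages overlapped, and the difference was -0.09 ± 0.10.

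At the outer membrane, the receptors of the import pore went in opposite directions. Tomm20, the receptor for presequences, had signals of 6822, 8159.7 and 7572 at 7 weeks and of 5935, 4557.5 and 5564 at 36 weeks. It was 1.40-fold lower, a log2 difference of -0.49 ± 0.11 (limma adjusted p of 0.00673). Tomm22, the central receptor that holds the complex together, had signals of 2329, 2341 and 1750.3 at 7 weeks and of 3983, 3022.5 and 3037 at 36 weeks. It was 1.56-fold higher, with a log2 difference of 0.63 ± 0.15 (limma adjusted p of 0.00866). Both were without overlap between the ages. Of the 5 tested probe sets of Tomm20 3 fell and 1, with a difference of 0.33, pointed the other way without passing. The other probe set of Tomm22 differed by -0.03 ± 0.22, and with its probe sets averaged Tomm22 was not called (0.30, limma adjusted p of 0.166).

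The remaining genes of the outer membrane pore were not called by their brightest probe sets. Tomm70a, the receptor to which carrier precursors bind, was lower on all old arrays, with a difference of -0.27 (limma adjusted p of 0.159). The other tested probe sets of Tomm70a differed by -0.39 and 0.26 and were not called. Tomm40, the pore itself, and its relative Tomm40l differed by 0.27 and 0.32. Tomm34, a cytosolic co-chaperone of import, differed by 0.19. Tomm7, a small subunit that tunes the stability of the complex, was the only gene here with calls in both directions. Its brightest probe set differed by -0.17 ± 0.10 and was not called, 2 others fell by 0.63 ± 0.10 and 0.78 ± 0.22, and 1 rose by 0.47 ± 0.16 (limma adjusted p of 0.0469).

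**Figure D4:**
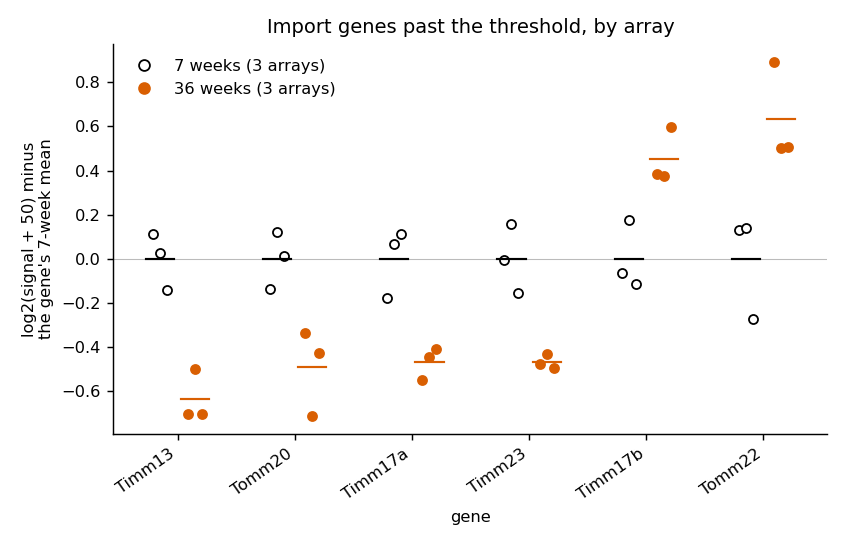
Signals of the 6 import genes past the threshold on each array, as log2(signal + 50) minus the gene's mean at 7 weeks, with open points for 7 weeks, filled points for 36 weeks and a bar at each mean. Timm13, Tomm20, Timm17a and Timm23 lie below all their young arrays on the old ones, and Timm17b and Tomm22 above.

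Among the chaperones of the intermembrane space, Timm13, which pairs with Timm8a1 to carry hydrophobic precursors, was the 1 called gene of 5 tested. That is 20% called, beside 35.1% of all tested genes. The signals of Timm13 were 4849, 4560.1 and 4063 at 7 weeks and 2735, 3154 and 2730.1 at 36 weeks. Every old array was below every young one. It was 1.56-fold lower, a log2 difference of -0.63 ± 0.11 (limma adjusted p of 0.00116), the largest called fall among the import genes. Its partner Timm8a1, the mouse counterpart of the deafness-dystonia gene, had scattered signals of 1417, 1629.7 and 733.2 at 7 weeks and of 751.4, 1541 and 453.8 at 36 weeks. The ages overlapped, and the difference of -0.53 ± 0.40 was not called (limma adjusted p of 0.338). A dimmer probe set of Timm8a1 differed by 0.28 ± 0.18 and was not called either. Timm8b, a relative of Timm8a1, differed by -0.29 ± 0.21.

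Timm10, which with Timm9 ferries carrier precursors to the inner membrane, was close to level, at 3400.8, 2912 and 2893 at 7 weeks and 3021, 3036 and 2952 at 36 weeks (-0.03 ± 0.10). Timm10b, which docks the chaperones on the TIM22 translocase, was higher on all old arrays by its brightest probe set, with a difference of 0.28 ± 0.10 short of the threshold (limma adjusted p of 0.0576). The other tested probe sets of Timm10b differed by -0.10 and -0.04.

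In the inner membrane, 3 of 8 genes passed (37.5%), near the background of 35.1% over all tested genes. The 3 were of the TIM23 translocase for presequence proteins and went both ways. Timm23, its channel, had signals of 7461, 8375 and 6731 at 7 weeks and of 5374.5, 5549 and 5305 at 36 weeks. Timm17a, which sits beside the channel, had signals of 4774, 5666 and 5857 at 7 weeks and of 3689, 3959 and 4062 at 36 weeks. Each was 1.39-fold lower and without overlap, with log2 differences of -0.47 ± 0.09 and -0.47 ± 0.10 (limma adjusted p of 0.00322 and 0.00522). Timm17b, the alternative form of Timm17a, rose instead. Its signals were 1664, 1978 and 1606 at 7 weeks and 2286, 2273 and 2658 at 36 weeks, 1.38-fold higher with a log2 difference of 0.45 ± 0.13 (limma adjusted p of 0.0213). The ages did not overlap. This rise rested on 1 probe set: the other differed by -0.42 ± 0.27, the mean of both by 0.02, and the call was also lost after median centring (0.35, limma adjusted p of 0.0703) and with any of 3 single arrays left out, the first or last of 7 weeks or the last of 36 weeks (limma adjusted p between 0.0602 and 0.0807). A test of Timm17a against Timm17b was not made.

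Timm50, the receptor of the TIM23 complex, had scattered signals of 1093, 525.4 and 1047 at 7 weeks and of 657.4, 743.2 and 198.1 at 36 weeks. Its difference of -0.79 ± 0.45 was not called (limma adjusted p of 0.203). Timm44, which anchors the import motor to the channel, differed by 0.34 ± 0.18, and by -0.12 and -0.10 in its dimmer probe sets, none called. Timm22, the channel that inserts carriers, was lower on all old arrays by its brightest probe set, with a difference of -0.27 ± 0.10 (limma adjusted p of 0.0704). Its partner Timm29 differed by -0.24. The dimmer probe sets of Timm22 and Timm29 pointed the other way, at 0.35 and 0.32, and were not called. Timmdc1, named for its resemblance to these proteins but known for the assembly of respiratory complex I, differed by 0.18 ± 0.32.

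**Figure D5:**
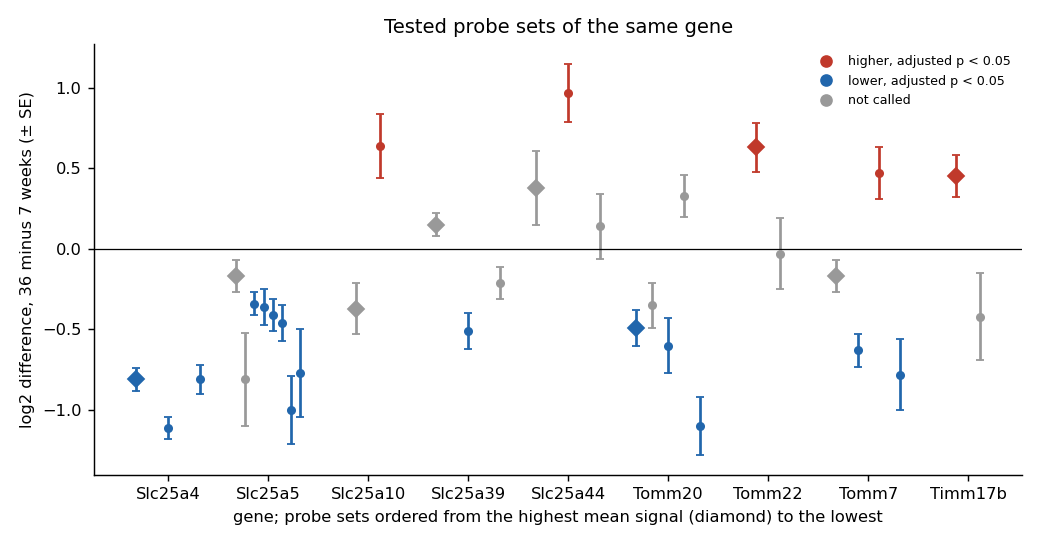
Log2 difference, 36 minus 7 weeks, with its standard error for every tested probe set of 9 genes in which probe sets were compared, ordered from the highest mean signal (diamond) to the lowest, and coloured by call. Those of Slc25a4 and Slc25a5 all lie below 0, whereas Tomm7 has points called on both sides of it.

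Genes that work with the import pores were called in both directions, with more falls than rises. Of 22 tested import and processing partners, all those found on the array from a list of 28 symbols, 2 rose and 7 fell, and the median log2 difference was -0.09. By direction 9.09% of the list rose and 31.8% fell, beside 17.5% and 17.6% of all tested genes, whose median was 0.02. Taken in either direction, the 9 calls of 22 are near the background of 35.1%. With no filter on low signals the list held 3 calls. Hspa9, the chaperone of the import motor, fell by 0.74 ± 0.10 (limma adjusted p of 0.000216), and Pam16 and Dnajc15 of the same motor fell by 0.38 and 0.49. Hspe1 and Hspd1, the chaperonin that folds imported proteins, fell by 0.54 and 0.27, Romo1, a small inner membrane protein, by 0.41, and Pmpcb, a subunit of the peptidase that removes presequences, by 1.06 ± 0.37, with 1 young array at 4591 beside 1233 and 1759.7. Gfer, the oxidase of the intermembrane space relay, rose by 0.56 ± 0.19, and Grpel2, an exchange factor of Hspa9, by 0.41 ± 0.14. Grpel1, the relative of Grpel2, differed by 0.23 and was not called. After median centring or quantile normalization, with no filter, or without any 1 array of 36 weeks, 0 of the list rose. Most of these calls were near the threshold: with 1 array left out in turn the list held 3 to 7 calls, the lowest being 3 without the first or second array of 36 weeks or the second of 7 weeks. The calls numbered 4 without the first array of 7 weeks and 5 without the third of 36 weeks.

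Other carriers and channels of the mitochondrial membranes, which the symbols above do not take in, showed 1 rise and 5 falls among 16 tested, with a median of -0.18. Taken in either direction, these 6 calls of 16 are near the background of 35.1% over all tested genes. By direction 6.25% rose and 31.2% fell, beside 17.5% and 17.6% of all tested genes. The voltage-dependent anion channels, through which metabolites cross the outer membrane, were lower in 2 of 3 cases. Vdac1 fell from a mean of 30798 to 17259 (-0.84 ± 0.15) and Vdac2 from 14573 to 10202 (-0.51 ± 0.07), while Vdac3 differed by -0.20 and was not called. Mpc1, of the mitochondrial pyruvate carrier, fell by 0.54 ± 0.09, Nnt, the nicotinamide nucleotide transhydrogenase, by 0.49 ± 0.12, and Ucp3, the uncoupling protein of skeletal muscle, by 0.89 ± 0.15. The 1 gene that rose was Ucp1, the uncoupling protein of brown fat, from a dim mean of 164.5 to 3838 (4.25 ± 0.29). Its 7-week signals lay below the filter limit of 593.6, so it was tested only through the age at which it was high, and its value is a description that supports nothing about the list. The size of the difference depends on the floor of the signal. Of 6 tested adipocyte markers 4 were higher and 0 lower, but Ucp1 is itself among the 4. The others were Fabp4 (means of 4111.3 and 10330.6), Cidea (1003.5 and 2004.7) and Adipoq (697.4 and 1305.7). Lpl and Retn differed by -0.18 and 0.32 and were not called. The part of the other adipocyte markers in the rise of Ucp1, and that of the muscle markers in the fall of Ucp3, was not tested.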

How the data were processed

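Total RNA from male DBA/2J cochleae was extracted with TRIzol, converted to biotin-labelled cRNA and hybridised to Affymetrix arrays, 1 per sample, as the labels' protocols state. The authors deposited intensity values: linear probe-set signals of 1 colour, summarised by software not given in the sources used here. Judged from the values, they had scaled the arrays to a trimmed mean of 1490.2 to 1493.0 (lowest 2% and values above the 98th percentile left out). Values were neither logged nor centred, and their absolute scale is unknown.

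Of 22626 probe sets, 20380 had 1 gene symbol in the platform annotation, 691 several and 1555 none. All 55 genes were found by Entrez identifier in RefSeq's GRCm38.p6 table, and 46 had a promoter window there. The brightest probe sets of 7 genes (Slc25a4, Slc25a5, Slc25a39, Slc25a47, Tomm7, Timm8a2, Timm10b) end in _x_at or _s_at and can bind related transcripts. Import partners and other carriers and channels were likewise called by the brightest probe set of each gene alone. Among those called, the probe sets of Vdac1, Hspe1 and Pam16 have such endings.

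Tests used log2(signal + 50), a scale that understates changes of dim genes. The 13575 probe sets with a mean signal above the 40th percentile were fitted in limma 3.58.1 (R 4.3.3; lmFit, then eBayes with an intensity trend), 36 minus 7 weeks, unpaired, two-sided, with Benjamini-Hochberg adjustment over all of them. Figures used Python 3.11.15 and matplotlib 3.10.9. The fit was tested on simulated data. With 3 arrays per age the smallest two-sided p of an exact permutation test is 0.1, so none was used.

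Genes past the threshold were named with their difference, and signals per array were given for the 8 called genes of each class with the largest difference and the brightest gene of each role. Those of Slc25a5, Slc25a20, Slc25a53, Timm8a1, Timm10 and Timm50 were added after their values were seen, as were the probe sets that disagreed. The genes, lists and tests were chosen with earlier results of these data known. Alternatives were offsets of 1 and 16, quantile normalization, median centring, other filters, no trend, a replicate block and leaving out each array in turn. Further ones were 9 pairs with a 1.5-fold minimum and averaging a gene's tested probe sets. A filter on the mean log2 value was added after seeing the data.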

Additional observations from a re-analysis of the deposited data

How the results depend on the processing

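Of the 16 called genes, 11 kept direction and call under every alternative that keeps the adjusted threshold alone, and 12 with each array left out, and none changed direction. The exceptions were Slc25a37, Slc25a51, Slc25a53, Tomm22 and Timm17b. Averaging probe sets could change the difference only for called genes with several tested probe sets. These were Slc25a4 and Tomm20, which kept the call, and Slc25a51, Tomm22 and Timm17b, which lost it. Requiring all 9 young-old pairs in one direction and a 1.5-fold change, the counts were 8 genes in all, 6 carriers, 2 import genes, 3 import partners and 3 other carriers and channels, against 16, 10, 6, 9 and 6. This alternative asks for a larger change. The import partners held 3 calls with no filter and 5 without the intensity trend (the cause was not tested), and 3 to 7 with an array left out. Leaving out an array gave 13 to 15 calls in all, 7 to 10 carriers, 5 to 6 import genes and 6 to 7 other carriers and channels.

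The carrier median of -0.09 was -0.20 after median centring, -0.12 with the 60th percentile filter, -0.15 with probe sets averaged and -0.03 after quantile normalization, and ran from -0.13 to -0.06 with an array left out. The import median of -0.21 was -0.31 after centring and -0.01 with probe sets averaged, and ran from -0.23 to -0.08, the last without the third array of 36 weeks. Centring moved the median of all tested probe sets from 0.02 to -0.08. It gave 3 higher and 9 lower carriers and 1 higher and 5 lower import genes. Averaging probe sets gave 0 higher and 4 lower import genes, and quantile normalization 5 and 5 carriers. The causes of these shifts were not tested. Across all probe sets, calls ranged from 3707 to 4826.

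Same-numbered arrays of the 2 ages deviated with correlations of 0.049, -0.010 and -0.002 across probe sets. Arrays of different numbers gave -0.043 to 0.045. The values show no pairing by number but cannot exclude a shared origin. With the replicate number as a block the counts were 16, 10, 6, 7 and 6, and Slc25a51 lost its call. Timm8a1 and Timm50, with scattered signals, had standard errors of 0.40 and 0.45 and allow no finer statement.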
